A study of Rattus norvegicus with 22 samples.

Results

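Endothelial nuclei of the rat kidney were taken as the nuclei named Endo in the cell annotation that the authors deposited for their single-nucleus RNA-Seq libraries, in all 5 treatments. There were 22227 of them among 310282 nuclei, or 7.16% (exact 95% confidence interval 7.07% to 7.25%). Among the 137757 nuclei outside the proximal tubule, that is, without the convoluted (PCT), straight (PST) and injured (iPT) proximal tubule types, they made up 16.1% (15.9% to 16.3%). The control group gave 4716 endothelial nuclei, the DOCA group 3658, the finerenone group 6456, the spironolactone group 5523 and the amiloride group 1874.

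The kidneys came from male Sprague-Dawley rats. Control rats were sham-operated and received no mineralocorticoid. The 4 other groups had 1 kidney removed, were injected under the skin each week with deoxycorticosterone acetate (DOCA) at 50 mg/kg, and drank salt water. DOCA rats were gavaged with vehicle alone, and the treated groups were gavaged daily with finerenone at 10 mg/kg, spironolactone at 50 mg/kg or amiloride at 20 mg/kg. Finerenone and spironolactone block the mineralocorticoid receptor, whereas amiloride blocks the epithelial sodium channel. Control rats differ from DOCA rats by surgery, DOCA and salt at once, so these cannot be told apart. The control and amiloride samples were all taken at 6 weeks, and each of the other groups had 4 samples from 6 weeks and 1 from 3 weeks. The 22 libraries of the annotation, 5 in each group and 2 with amiloride, were not matched to individual samples or times, so each library is described here by its treatment and its number of nuclei, and treatments were not tested against each other with libraries as replicates.

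Kidney endothelium comprises the fenestrated capillaries of the glomerulus, the peritubular capillaries around the tubules, the vasa recta of the medulla, and the lining of arteries and veins. It filters plasma in the glomerulus together with the podocytes, and in the interstitium it lies next to fibroblasts and pericytes. Pecam1, an adhesion molecule of endothelial junctions, Flt1, a receptor for vascular endothelial growth factor, and Emcn, a sialomucin of capillary and venous endothelium, are its usual markers. Gene values were not analysed here, so the name was not checked against these markers, and it is used as the authors gave it. Its position among the other types on the deposited UMAP is described after the shares. The map and the names were made from the same data, so the position is not a check of the name.

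Some libraries stood apart before any treatment was compared. Nuclei per library ranged from 759 to 48403. The names of 11 libraries carry an Old tag (5) or a New tag (6). Those of 5 libraries, 1 in each treatment, end in MO. This was read here as the Multiome kit, which also profiles open chromatin. The paper states that 5 samples were made with that kit, but the reading was not checked against the samples' labels. Apart from the tags the 22 libraries bear 16 different names, and whether libraries of the same name come from the same rat is not given in the sources used here. The 3 libraries of more than 30000 nuclei, 2 of them finerenone and 1 spironolactone, all carry the New tag. Each holds more nuclei than the 30000 the authors state were loaded. Whether each is a single run is not given in the sources used here. Together these 3 libraries held 3.67% endothelial nuclei (3.57% to 3.78%), against 9.43% (9.30% to 9.57%) in the other 19 libraries. Proximal tubule nuclei made up 85.7%, 55.2% and 28.4% of these 3 libraries, and 38.2% to 61.1% of the others. No control or DOCA library was of this size, so the differences of finerenone and spironolactone from DOCA are given with and without them. Barcodes were seldom shared between libraries: 9782 of 300310 barcodes occurred in more than 1 library. Counted by nucleus and not by barcode, 1537 endothelial nuclei (6.92%) had a barcode that another library also held. The percentage over all nuclei was not computed, so this value cannot be called high or low for the endothelium. In 1596 pairs of such nuclei the other nucleus was endothelial in 108 (6.77%).

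Endothelium was the most or the second most numerous non-proximal-tubule type in most libraries. Of the 13 such types, it held rank 1 in 11 libraries, rank 2 in 5, rank 3 in 3, rank 4 in 2 and rank 5 in 1. Among all 16 types its rank ran from 2 to 7. It outnumbered fibroblasts in 22 of 22 libraries, podocytes in 21 and the loop of Henle in 11.

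The first comparison asked whether the endothelial share differed between DOCA and control kidneys. The 5 control libraries, in order of size from 1238 to 18931 nuclei, held 12.7%, 12.7%, 11.2%, 11.7% and 7.49% endothelial nuclei. The first 4 lie close together and the largest control library lies well below them. The DOCA libraries, from 1774 to 15167 nuclei, held 9.98%, 7.69%, 9.24%, 8.33% and 6.13%. All 5 DOCA libraries were below 4 of the 5 control libraries, and 1 of them was below all 5, so the groups overlapped through a single control library, that of 18931 nuclei. The mean that weights libraries equally was 11.2% in control and 8.27% in DOCA, a difference of -2.89 percentage points, and it was -3.81 without that library. Over the 16 types, 12.5% had DOCA and control ranges that did not overlap (lymphocytes and proliferating tubule), and endothelium was not one of them. A share falls equally when endothelial nuclei are fewer and when other nuclei are more, and these cannot be told apart from a share alone.

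Within the libraries whose names carry no tag, the 3 DOCA libraries (7.69% to 9.98%) lay below the 3 control libraries (11.2% to 12.7%). In that same comparison 56.2% of all 16 types had ranges that did not overlap, so the endothelium was 1 of many types for which the groups were apart. By share of non-proximal-tubule nuclei the untagged DOCA libraries (15.8% to 24.8%) spanned the control ones (20.6% to 24.4%), whereas 30.8% of the 13 types had ranges that did not overlap. The tagged libraries were 2 per group and spread more widely, with 11.7% and 7.49% in control against 8.33% and 6.13% in DOCA, which overlapped.

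**Figure D1:**
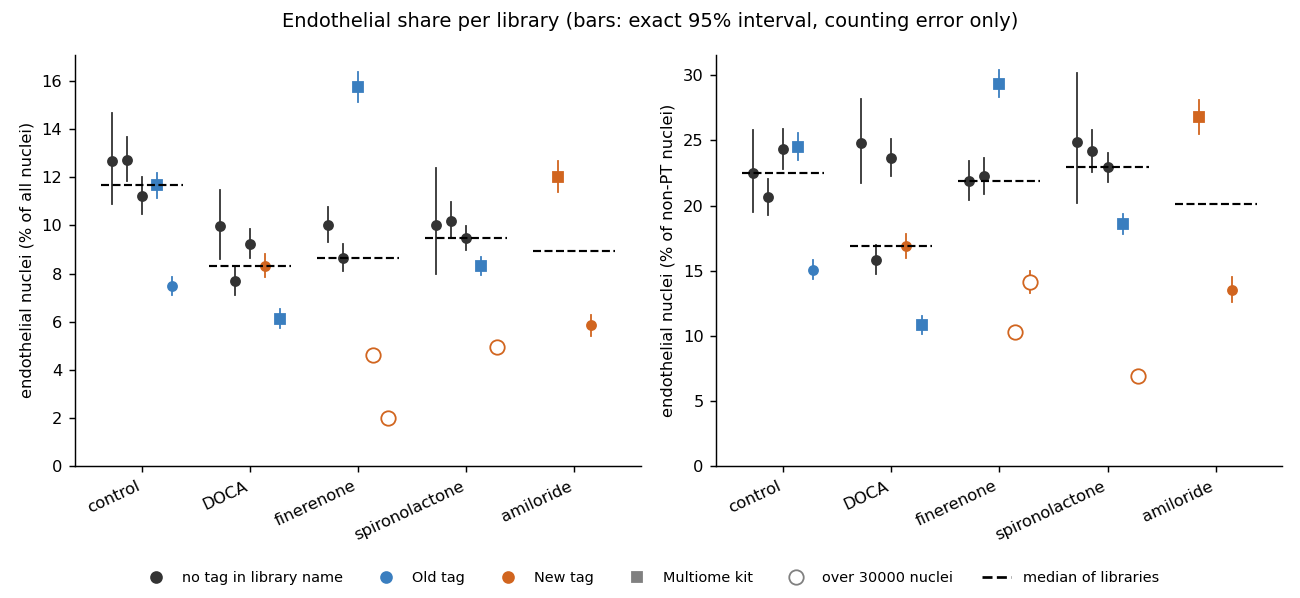
Endothelial nuclei per library as a percentage of all nuclei (left) and of nuclei outside the proximal tubule (non-PT, right), by treatment. Points are libraries coloured by the tag in their names, squares are Multiome libraries, large open circles are the 3 libraries of more than 30000 nuclei, vertical bars are exact 95% intervals for counting error, and dashed lines are medians. The control libraries sit at 11.2% to 12.7% of all nuclei except for 1 at 7.49%, and the 3 open circles are at 2.01% to 4.93%.

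Without the proximal tubule in the denominator, the control and DOCA libraries were less separated. The control libraries, in the same order, held 22.5%, 20.6%, 24.4%, 24.5% and 15.1% endothelial nuclei among non-proximal-tubule nuclei, and the DOCA libraries held 24.8%, 15.8%, 23.7%, 16.9% and 10.8%. The DOCA library of 1774 nuclei lay above the control range and that of 8716 nuclei near its upper end, those of 8300 and 13307 nuclei just above its lowest value, and that of 15167 nuclei below it. The equal-weight means were 21.4% and 18.4%, a difference of -3.02 percentage points. Without the DOCA library of 15167 nuclei the difference was -1.12, without the Multiome libraries it was -0.346, without immune nuclei in the denominator -0.716, and in untagged libraries -1.06. Of the 13 types, 15.4% had non-overlapping ranges in this comparison. The 2 DOCA libraries with the higher values also held the most proximal tubule nuclei of their group, 59.8% and 61.0%, and the part of this in their values was not tested.

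The second comparison set finerenone against DOCA. The finerenone libraries, from 6564 to 48403 nuclei, held 10.0%, 8.65%, 15.8%, 4.62% and 2.01% endothelial nuclei. The library of 13679 nuclei, read as Multiome from its name, had the highest share of all 22, and the 2 largest libraries had the lowest. Of the 5, 2 were above every DOCA library and 2 were below every one. The equal-weight mean was 8.21%, -0.0594 percentage points from that of DOCA, and the pooled share was 5.46% against 7.74%. Without the 2 largest libraries the difference was 3.20 percentage points in the other direction. Finerenone and DOCA ranges overlapped, and 6.25% of types (type A intercalated cells) had ranges that did not.

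As a share of non-proximal-tubule nuclei, the finerenone libraries held 21.9%, 22.2%, 29.3%, 10.3% and 14.1%. The first 2 were close to each other and the Multiome library was again the highest of all 22. The equal-weight mean of 19.6% was 1.19 percentage points above that of DOCA, but -1.25 without the finerenone Multiome library of 13679 nuclei. It was 6.10 above without the 2 libraries of more than 30000 nuclei. The largest library, whose nuclei were 85.7% proximal tubule, had the lowest share of its group among all nuclei and the second lowest with this denominator. Non-overlapping ranges were found for 7.69% of the 13 types, endothelium not among them.

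The third comparison set spironolactone against DOCA. The spironolactone libraries, from 759 to 33683 nuclei, held 10.0%, 10.2%, 9.49%, 8.32% and 4.93% endothelial nuclei. The first 3, all untagged, differed by less than 1 percentage point, and the smallest of them had a wide interval of 7.97% to 12.4% from its 76 endothelial nuclei. The equal-weight mean was 8.59%, which is 0.317 percentage points above DOCA, and it was 1.23 above without the library of 33683 nuclei. The difference had the opposite sign, -0.218, without the DOCA library of 15167 nuclei. The percentage of types with non-overlapping ranges was 0 in this comparison.

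Among non-proximal-tubule nuclei, spironolactone libraries held 24.9%, 24.2%, 22.9%, 18.6% and 6.88% endothelial nuclei, the last of these being the lowest of all 22 libraries. In that library 28.4% of nuclei were proximal tubule, also the lowest of all, and it held 2586 podocytes and 1660 endothelial nuclei. The equal-weight mean of 19.5% was 1.09 percentage points above DOCA, and 4.24 above without this library. The value without the DOCA library of 15167 nuclei was -0.807. Here too 0 types had non-overlapping ranges.

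The 2 amiloride libraries gave different endothelial shares. The Multiome library of 10172 nuclei held 12.0% (11.4% to 12.7%), and the library of 11144 nuclei held 5.84% (5.41% to 6.29%). Their intervals for counting error were far apart, although their proximal tubule percentages were 55.1% and 56.8%. Among non-proximal-tubule nuclei the values were 26.8% and 13.5%. The Multiome library lay above all 5 DOCA libraries in both measures, whereas the other lay below all of them by share of all nuclei and among them by share of non-proximal-tubule nuclei. No direction against DOCA could be read from this pair. The mean difference from DOCA was 0.661 percentage points of all nuclei, -2.43 without the Multiome library and 3.75 without the other one. Ranges did not overlap for 6.25% of types by share of all nuclei and for 7.69% by share of non-proximal-tubule nuclei.

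Each treatment had a single library read as Multiome, which allowed 1 comparison among these libraries, without replicates. The endothelial share of all nuclei was 11.7% (11.1% to 12.2%) in control and 6.13% (5.76% to 6.53%) in DOCA. It was 15.8% (15.2% to 16.4%) with finerenone, 8.32% (7.96% to 8.69%) with spironolactone and 12.0% (11.4% to 12.7%) with amiloride. DOCA was the lowest of the 5. The order was the same for non-proximal-tubule nuclei, with 10.8% in DOCA, 18.6% with spironolactone, 24.5% in control, 26.8% with amiloride and 29.3% with finerenone. By both measures the Multiome value exceeded every other value of its treatment for finerenone and amiloride and was the lowest of its treatment for DOCA. Among non-proximal-tubule nuclei it was also the highest of its treatment for control, at 24.5% against 24.4% in the next library. These are 5 libraries, and the spread between rats cannot be seen from them. Of the 4 Multiome libraries besides amiloride all carry the Old tag, and the amiloride one carries the New tag.

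Relative to fibroblasts, the cells that produce interstitial matrix, endothelial nuclei varied less across the middle of the libraries than relative to any other type. The median was 3.53 endothelial nuclei per fibroblast nucleus over the 22 libraries, and the upper quartile was 1.34 times the lower, the smallest such spread of the 15 other types. The next were the convoluted proximal tubule at 1.40 and type A intercalated cells at 1.54. The widest were lymphocytes at 4.64, macrophages at 4.19 and podocytes at 2.93. The full range of the fibroblast ratio was wide nonetheless, from 1.08 to 9.77, a factor of 9.03 set by 1 library at each end. The smallest full range was that of the type A intercalated cells, a factor of 3.77.

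The control libraries held 2.71, 3.13, 2.99, 3.58 and 9.77 endothelial nuclei per fibroblast nucleus. The library of 18931 nuclei stood alone at 9.77 (8.23 to 11.7), with 1417 endothelial nuclei and 145 fibroblasts, and it is the same library that had the low endothelial share. The DOCA libraries held 3.61, 1.74, 5.23, 3.47 and 2.78, so they lay on both sides of the other 4 control libraries. The geometric mean was 3.89 in control and 3.16 in DOCA, a log2 difference of -0.30, which was 0.035 without the control library of 18931 nuclei. The percentage of types whose ratio to fibroblasts did not overlap between DOCA and control was 0.

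With finerenone the ratios were 2.88, 3.79, 3.62, 1.08 and 3.07. The library of 40267 nuclei, with 1862 endothelial nuclei and 1721 fibroblasts, was the lowest of all 22, whereas the other large finerenone library lay within the range of the smaller ones. The log2 difference from DOCA was -0.25, and 0.069 without that library. Without both large libraries, finerenone ran from 2.88 to 3.79, inside the DOCA range of 1.74 to 5.23, and 6.67% of types had ratios that did not overlap. With spironolactone the ratios were 3.62, 3.71, 5.38, 2.46 and 2.59, a log2 difference of 0.11 from DOCA. It was 0.21 when the library of 33683 nuclei was dropped, and -0.11 when instead the DOCA library of 8300 nuclei was. With amiloride they were 3.96 and 4.55, a log2 difference of 0.42. Both amiloride values lay inside the DOCA range and above 4 of the 5 DOCA libraries. The percentage of types with non-overlapping ratios was 0 for finerenone, 0 for spironolactone and 13.3 for amiloride, and the endothelial ratio overlapped in all 3.

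Podocytes, the epithelial cells that wrap the glomerular capillaries, gave a different picture, in which the 3 largest libraries stood apart. In the 3 libraries of more than 30000 nuclei there were 1.00, 1.52 and 0.642 endothelial nuclei per podocyte, in the finerenone libraries of 40267 and 48403 nuclei and the spironolactone library of 33683. In the other 19 libraries the ratio ran from 4.72 to 76.0, so the 2 sets did not overlap. The 3 large libraries also carry the New tag and come from drug groups. The value of 4.72 is from a New amiloride library of 11144 nuclei. The New DOCA library held 15.6 and the New amiloride Multiome library 19.4. The parts of size, tag and treatment were not tested. The control values were 52.3, 15.7, 11.3, 7.61 and 9.32, and the DOCA values 25.3, 9.11, 29.8, 15.6 and 10.9. The highest ratios rest on very few podocytes, namely 1 in the spironolactone library of 759 nuclei and 3 in the control library of 1238 nuclei. The pooled ratios, 9.62 in control, 14.1 in DOCA, 2.40 with finerenone, 1.98 with spironolactone and 9.32 with amiloride, therefore reflect mainly the large libraries in the finerenone and spironolactone groups. Without those 3 libraries the pooled ratio was 18.7 with finerenone and 19.5 with spironolactone.

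**Figure D2:**
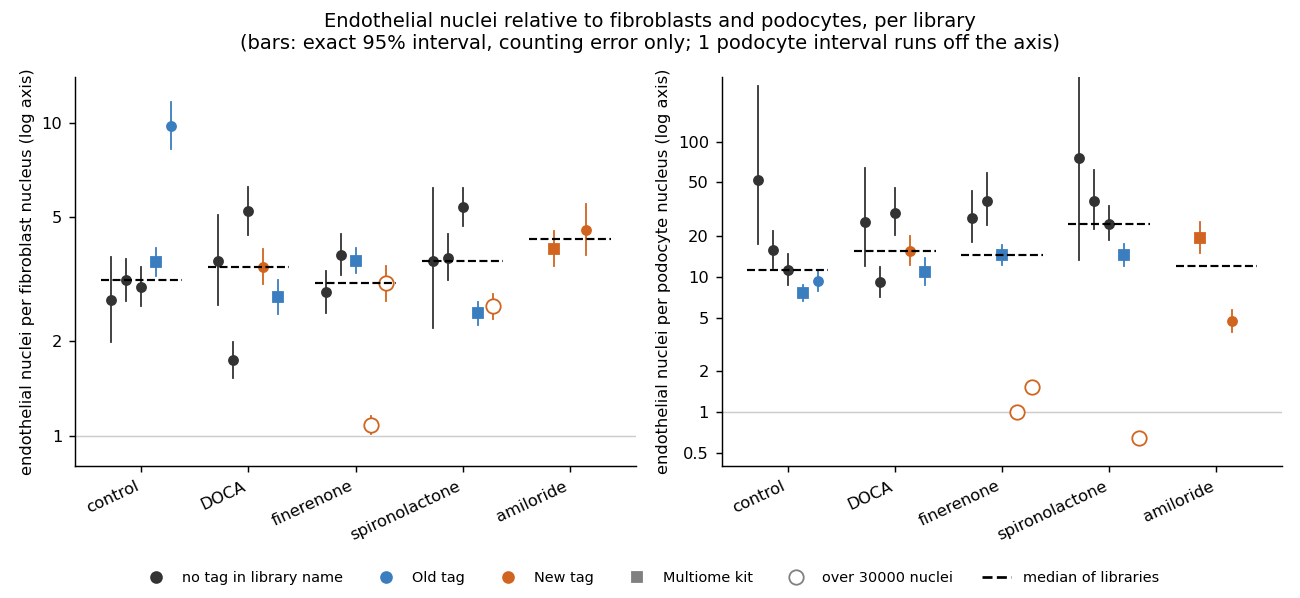
Endothelial nuclei per fibroblast (left) and per podocyte (right) in each library by treatment, on log axes. Symbols are as in the plot of shares, and vertical bars are exact 95% intervals for counting error. Most fibroblast ratios lie between 2.46 and 4.55, and the 3 large libraries lie at 0.642 to 1.52 endothelial nuclei per podocyte, below all others.

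Myofibroblasts, the contractile and matrix-forming mesenchymal cells, were scarcer. The control libraries held 26.2, 27.1, 15.2, 17.6 and 26.2 endothelial nuclei per myofibroblast nucleus, and the DOCA libraries 22.1, 15.2, 57.5, 4.47 and 13.5. The lowest DOCA value, 4.47, came from its only New library. The 3 large libraries, which also carry the New tag, had 1.79, 5.80 and 2.83. The 2 amiloride libraries, also New, had 18.5 and 10.2. The 4 lowest values of the 22 libraries were thus all from New libraries, and no control library carries that tag.

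On the deposited UMAP, a 2-dimensional map in which nuclei of like expression lie near each other, the endothelial nuclei formed an island of their own. The island held 21944 nuclei (98.7%), with a median at -3.39 on the first axis and 6.59 on the second. Of the 30 nearest neighbors of an endothelial nucleus, 98.0% on average were endothelial, and 85.1% of endothelial nuclei had no neighbor of another type. The commonest other neighbors were convoluted proximal tubule (1.14%), lymphocytes (0.196%), macrophages (0.183%) and the loop of Henle (0.160%). Fibroblasts were 0.0493% and podocytes 0. With 10 or 100 neighbors the endothelial percentage was 98.1.

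The remaining 283 endothelial nuclei (1.27%) lay elsewhere on the map. For 265 of them (93.6%) the commonest neighbor type was convoluted proximal tubule, and 241 formed a second cluster inside the proximal tubule area. The share of endothelial nuclei outside the island ran from 0 to 5.56% over the libraries. It was highest in the amiloride Multiome library of 10172 nuclei (68 of 1223), followed by the DOCA library of 8300 nuclei at 2.98%. In the control library of 1238 nuclei, the DOCA library of 1774 and the spironolactone library of 759, none of 157, 177 and 76 endothelial nuclei lay outside. At these depths a share of up to 1.91%, 1.69% and 3.95% is allowed. Conversely, 170 nuclei named as another type had mostly endothelial neighbors, 0.0590% of all other nuclei. They included 49 lymphocytes (1.63% of lymphocytes), 40 macrophages, 33 loop of Henle nuclei and 8 fibroblasts.

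**Figure D3:**
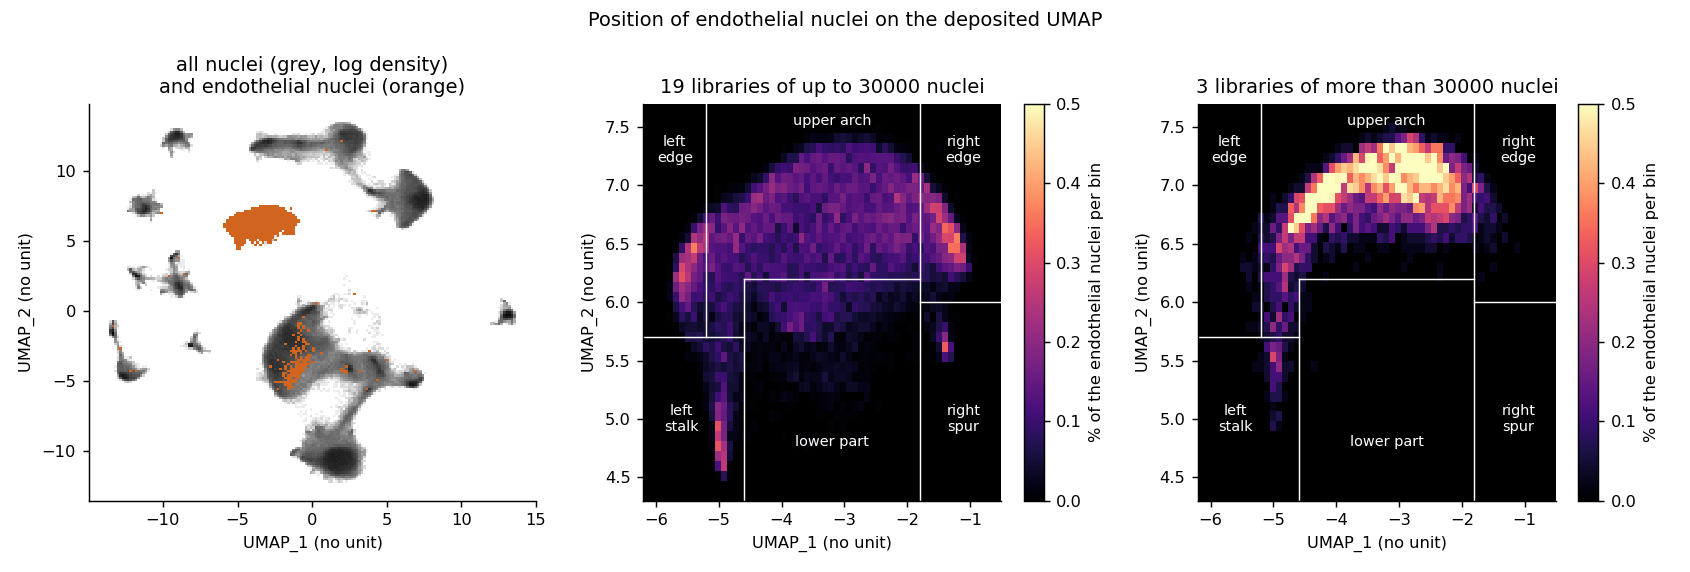
Endothelial nuclei on the deposited UMAP, whose axes have no unit. Left, all 310282 nuclei in grey with endothelial nuclei in orange; middle and right, the endothelial island in the 19 libraries of up to 30000 nuclei and in the 3 larger ones, colored by the percentage of that set's endothelial nuclei in each bin (0.5% and above share the lightest color), with white lines for the region borders. The 3 larger libraries fill the upper arch and leave the lower part and the right spur nearly or wholly empty.

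Within the island, nuclei of different libraries did not lie evenly. For description, the island was divided after the map had been seen into an upper arch, left and right edges, a left stalk, a right spur and a lower part. The regions are positions on the map and were given no cell type, since no gene values were read. The upper arch held 92.7% to 96.0% of the island in the 3 libraries of more than 30000 nuclei, which all carry the New tag. It held 45.9% to 75.8% (median 57.1%) in the other 19, so the sets were 16.9 percentage points apart. The lower part held 0.181% to 0.311% in the large libraries and 1.32% to 22.0% in the others. The left edge held 0.431% to 1.04% against 5.65% to 12.7%, and the right edge 1.56% to 2.80% against 5.80% to 16.1%. The left stalk was less apart, with 1.78% to 3.32% against 3.39% to 12.7%. None of the nuclei of the 3 large libraries lay in the right spur, which allows up to 0.162%, 0.311% and 0.181% in the libraries of 40267, 48403 and 33683 nuclei. The other libraries had 0 to 6.48% there.

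Among the 19 smaller libraries, DOCA was compared with control, and each drug with DOCA, in these regions. The upper arch held 54.1%, 50.4%, 58.4%, 55.1% and 66.1% of the island in control libraries and 69.5%, 61.1%, 54.6%, 75.8% and 62.1% in DOCA libraries, in order of size. The DOCA median was higher, but 1 DOCA library lay below 3 control libraries. It held 54.2%, 53.1% and 46.1% in the finerenone libraries of up to 30000 nuclei, all of them below every DOCA library. The spironolactone libraries of that size held 63.2%, 45.9%, 57.1% and 50.1%, and the amiloride libraries 62.3% and 72.2%. The upper arch was therefore highest in a DOCA library and lowest in a spironolactone library, and of the 4 comparisons only finerenone against DOCA had ranges that did not overlap. That gap was 0.377 percentage points, it was 2.94 with the outer regions widened by 0.1 UMAP units, and with them narrowed by 0.1 the ranges overlapped. Over the 6 regions, 16.7% had non-overlapping ranges in this comparison, namely this 1, and 0 in the others. It rests on borders drawn after the map was seen and on 3 finerenone libraries. The DOCA library with 75.8% is the only New one of its group, and both amiloride libraries are New. Over all 22 libraries the arch held 62.3% to 96.0% in the 6 New libraries and 45.9% to 69.5% in the 11 untagged ones. In the 5 Old libraries it held 46.1% to 66.1%. The parts of tag, size and treatment in these values were not tested.

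The right spur held little of the island in any group. It amounted to 0 to 1.50% of the island in control libraries and 0.273% to 3.72% in DOCA libraries. In the smaller finerenone and spironolactone libraries it held 1.94% to 6.48% and 0.219% to 5.26%, and it held 0.622% and 0.693% with amiloride. The lower part was fullest in the Multiome libraries, at 14.8% to 22.0% of the island, against 1.32% to 19.3% in the other libraries of up to 30000 nuclei, and these 2 ranges overlapped.

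**Figure D4:**
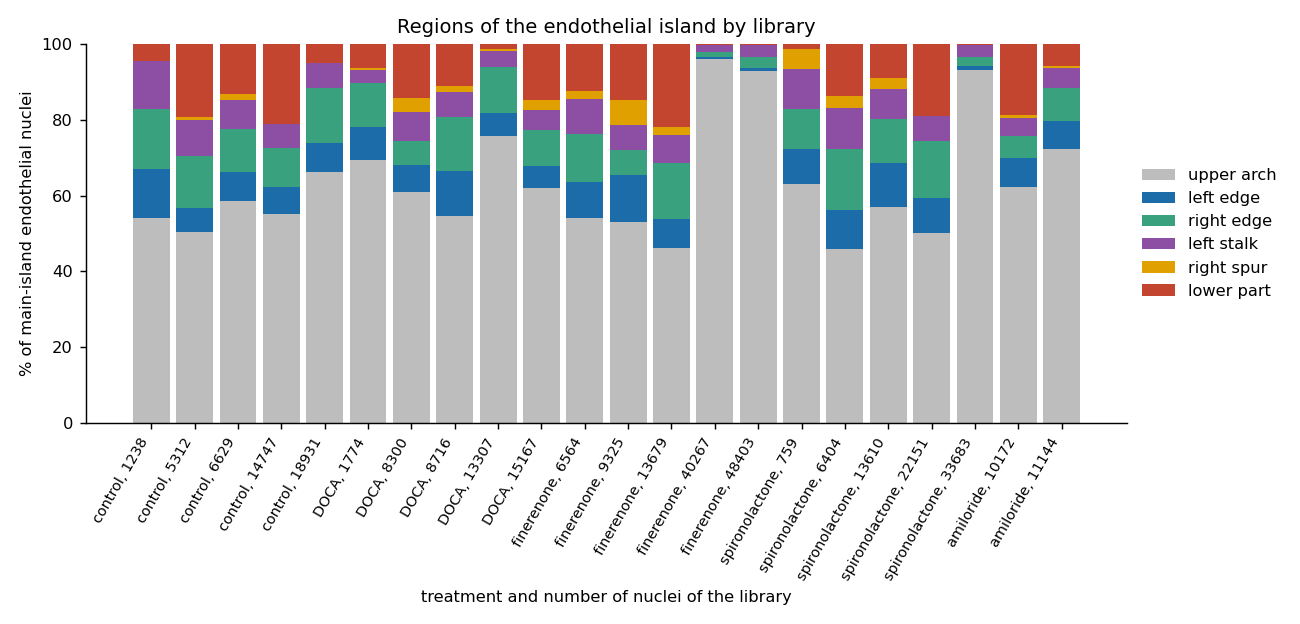
Percentage of the main endothelial island in each of 6 map regions, 1 stacked bar per library, labelled by treatment and number of nuclei. The finerenone bars of 40267 and 48403 nuclei and the spironolactone bar of 33683 nuclei have 92.7% to 96.0% in the upper arch, whereas the others have 45.9% to 75.8%.

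Endothelial nuclei lay somewhat nearer to nuclei of their own library than even mixing would give. Of the 30 nearest endothelial neighbors, 9.17% came from the same library, against 5.97% if libraries were mixed evenly, a ratio of 1.54. For the same treatment the values were 24.4% and 22.5%, a ratio of 1.08. The ratio was larger for the library than for the treatment, but neighbors of the same library also count toward the treatment. Grouping by treatment apart from the library therefore cannot be read from these ratios. For nuclei of the 3 largest libraries, 37.3% of endothelial neighbors came from those libraries, against 20.2% with even mixing, a ratio of 1.84. The same ratio computed within the other 15 types ran from 1.08 in podocytes to 2.05 in macrophages. It was 1.61 in fibroblasts and 1.49 in the convoluted proximal tubule. In all 16 types the nuclei of the large libraries had more neighbors from those libraries than even mixing would give. Endothelium held rank 4 of the 16 types by this ratio. The highest ratio a type can reach falls as its even-mixing percentage rises, and that was 79.1% in podocytes against 20.2% in endothelium. The rank and the range therefore partly reflect how much of a type the large libraries hold.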

How the data were processed

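Single-nucleus RNA-Seq was made by the authors from 22 rat kidney samples. Per the submitters' processing notes, reads were aligned to rn6 with Cell Ranger 3.0.2 (11 samples) or 6.0.1 (11 samples) and analyzed with Seurat 4.0.1. Introns were counted, ambient RNA was removed with SoupX and doublets with DoubletFinder, nuclei were filtered by number of genes and mitochondrial percentage, libraries were corrected with Harmony, and clusters were named from marker genes. The annotation the authors deposited holds names only, which say for each nucleus from which library and treatment it came and what cell type it was called. The deposited UMAP coordinates are a score without a unit, computed after Harmony. Gene values, RNA counts per nucleus and cluster numbers were not analysed here, so RNA depth per nucleus is unknown.

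Nuclei named Endo were counted per library with Python 3.11.15, pandas 2.3.3 and numpy 2.4.6, and positions were joined by barcode. Intervals are exact (Clopper-Pearson, 95%, scipy 1.17.1), and where no nucleus was found the limit is 3 counts; both cover counting error only. Libraries held 759 to 48403 nuclei. Neighbors (30, or 10 and 100) were found with scikit-learn 1.9.0 and the island by linking nuclei within 0.5 units with at least 10 neighbors. Region borders lay at -5.2, -4.6 and -1.8 on the first axis and 5.7, 6.0 and 6.2 on the second. The neighbor percentage was tested on simulated points, the regions on points set by hand and the interval on an example. Plots were drawn with matplotlib 3.10.9.

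Libraries were grouped by the treatment the annotation gives. The exact permutation tests planned over libraries, their version within tagged and untagged libraries, and the correlations of the endothelial share with other types were left out by choice, because no library could be tied to a labelled sample and the tests would have counted libraries as independent rats. Values are therefore printed without SD, p or n, and overlap of ranges over libraries is described beside the percentage of all types whose ranges did not overlap. The limit of 30000 nuclei is the number the authors state was loaded. The endothelium and the types set beside it (fibroblasts, podocytes, myofibroblasts and proximal tubule) were chosen with earlier results of these data known, and other types were named for their rank after their values were seen. The alternatives were pooled nuclei, another scale, other denominators and reference types, and leaving out Multiome, tagged, untagged, very large, very small or single libraries. Leaving out the New libraries, the Multiome libraries alone and shifted region borders were added after the data were seen.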

Additional observations from a re-analysis of the deposited data

Results flagged for a closer look

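Of 44 groups of 4 or 5 libraries of 1 treatment that were examined for a library far from the others, 5 had one by Dixon's criterion, and chance alone gives about 1 in 20. This criterion takes the libraries of a treatment as separate draws, although they were not matched to rats. The 5 are not independent of each other, since the control libraries of 18931 and 1238 nuclei each recur among them. The control library of 18931 nuclei had an endothelial share of all nuclei of 7.49%, the next lowest control library being at 11.2%. That gap was 0.714 of the control range, barely above the critical value of 0.71 for 5 libraries. The same library held 9.77 endothelial nuclei per fibroblast nucleus, the next highest being 3.58. It held 145 fibroblasts, fewer than the 216, 249 and 480 of the 3 control libraries of 5312, 6629 and 14747 nuclei. The control library of 1238 nuclei held 52.3 endothelial nuclei per podocyte, resting on 3 podocytes, with the next highest at 15.7. In that library the left edge held 12.7% of the endothelial island, the next highest being 7.77%. In the spironolactone library of 33683 nuclei the left edge held 0.905% of the island, the next lowest being 9.15%. Groups were not tested where a treatment had fewer than 4 libraries.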

How the results depend on the processing

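Differences are equal-weight means over libraries, in percentage points, and log2 for the fibroblast ratio. Of 114 alternatives that do not leave out a single library, 80 kept the direction and moved by less than 1 SD over libraries, 27 had the opposite sign and 7 moved further. Some of the 80 could not move the value, because they left out no library of the groups compared. No control, DOCA or amiloride library held more than 30000 nuclei, and only spironolactone had a library under 1000. The DOCA difference from control stayed below 0 in both shares; with the Multiome libraries alone it was -5.53 of all nuclei and -13.7 of non-proximal-tubule nuclei, and the latter was -0.346 without Multiome, -0.716 without immune nuclei and -1.06 in untagged libraries. Its fibroblast ratio was 0.12 in untagged libraries and 0.17 with podocytes as reference. Finerenone minus DOCA, by share of all nuclei, was 0.365 in untagged, 0.237 in tagged and 9.63 in Multiome libraries, 3.20 without libraries over 30000 nuclei, 3.22 without New ones, -2.48 without Multiome and -2.28 pooled. By share of non-proximal-tubule nuclei it was 6.10 without libraries over 30000 nuclei, -3.15 without Multiome and 18.5 with Multiome alone; its ratio was 0.044, 0.11, 0.14 and 0.38 in untagged libraries, without those over 30000 nuclei, without New ones and in Multiome, and -1.14 against podocytes. Spironolactone minus DOCA was -0.530 pooled, -0.151 without Multiome, -0.605 in tagged libraries, -0.0389 without libraries under 1000 nuclei and 2.19 in Multiome; of non-proximal-tubule nuclei the first 4 were -2.75, -0.575, -1.11 and -0.265; its ratio was -0.18 against podocytes, -0.30 in tagged and -0.17 in Multiome libraries. Amiloride minus DOCA was -2.96 without Multiome and 5.89 in Multiome; of non-proximal-tubule nuclei -6.78 and 16.0, and -0.55 without immune nuclei; its ratio was -0.77 against podocytes. The cause was not tested. Leaving out each library gave, for all nuclei, -3.81 to -2.36 (DOCA minus control), -1.95 to 1.49 (finerenone), -0.218 to 1.23 (spironolactone) and -2.43 to 3.75 (amiloride); for non-proximal-tubule nuclei -4.62 to -1.12, -1.25 to 3.50, -0.807 to 4.24 and -4.88 to 8.38; for the ratio -0.48 to 0.035, -0.47 to 0.069, -0.11 to 0.29 and 0.21 to 0.60. The extremes came from leaving out control 18931, DOCA 1774, 8300, 8716 and 15167, finerenone 13679, 40267 and 48403, spironolactone 33683 and each amiloride library. No paired analysis was possible because the library names carry no replicate number shared with the labels. Alternatives for RNA counts, cluster numbers, correlations and permutation within tagged libraries were not run.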

Other observations

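The endothelial nuclei that lay outside the main island came unevenly from the libraries: 68 of the 283 were from the amiloride Multiome library of 10172 nuclei and 48 from the finerenone Multiome library of 13679 nuclei. In the other Multiome libraries there were 15 in control, 10 in DOCA and 18 with spironolactone. Of the 22227 endothelial nuclei, 127 had no endothelial nucleus among their 30 nearest neighbors.

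In 2 treatments a pair of libraries had the same name before the Old or New tag. The control libraries of 1238 and 14747 nuclei shared 0 barcodes. The spironolactone libraries of 13610 and 33683 nuclei shared 102 barcodes, of which 0 were endothelial in both. The name of the control pair and 3 others, 4 in all, recurred under another treatment. Whether 2 libraries of the same name come from the same rat is not given in the sources used here, and the number of rats behind the 5 control and the 5 spironolactone libraries is therefore unknown. The spironolactone pair differed in endothelial share of all nuclei, 9.49% and 4.93%, and in endothelial nuclei per podocyte, 24.8 and 0.642.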
